A study of Homo sapiens with 12 samples.

Results

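The RNA-binding proteins LIN28A and LIN28B, the exonuclease DIS3L2 and 7 classical targets of the let-7 microRNAs (IGF2BP1, IGF2BP2, IGF2BP3, HMGA1, HMGA2, ARID3B and TRIM71) were followed through 3 human leukemia lines. These 10 genes are the rows of the deposited table that carry those symbols, out of 58395 genes in all. The set was chosen by the measured LIN28A counts, which were high in 1 of the lines, and the question was whether let-7 target genes stood higher in the same cells. The LIN28A values therefore describe the choice and are given without a test.

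RNA was sequenced from K562, from K/VP.5 and from K/VP.5/edit-3 (edit-3 below), at 4 libraries each. K562, long in culture, came from the blast crisis of a chronic myeloid leukemia, a disease driven by the fusion kinase BCR-ABL. A single clone grown out of it, K/VP.5, is resistant to etoposide, which poisons topoisomerase II by holding it on broken DNA. Edit-3 is in turn 1 clone of K/VP.5, obtained by transfecting Cas9 protein with its guide and an oligonucleotide template, so as to alter the 5′ splice site of exon 19 in TOP2A, which encodes topoisomerase IIα. Each comparison thus sets one clone or line against another, and differences that arose during cloning cannot be told apart from those of resistance or editing. Per the labels, 0.5 µM etoposide was given every other week, in a sentence that names all 3 lines together. The labels do not say that the 4 libraries of a line were separate cultures, so p-values measure only how far these libraries spread, and that spread may be technical.

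LIN28 proteins and let-7 microRNAs restrain each other. LIN28A binds the precursor of let-7 in the cytoplasm and recruits uridylyltransferases that add a tail of U to it, and DIS3L2 then degrades the tailed precursor. LIN28B, its paralogue, blocks let-7 maturation too. Mature let-7 in turn pairs through its seed with sites in the 3′ untranslated regions of growth and fetal genes, LIN28A and LIN28B among them, and lowers their mRNA and protein. In blood, LIN28B and IGF2BP1 are known for the fetal program of stem cells and red cell precursors, whereas LIN28A is best known from embryonic stem cells. Mature let-7 itself was not analysed here.

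The sequences show how the circuit is written. In the RefSeq set, 9 mature human sequences of the family share the seed GAGGUAG at bases 2 to 8, in capitals in 4 examples that differ outside it.
hsa-let-7a-5p: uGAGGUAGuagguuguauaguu
hsa-let-7d-5p: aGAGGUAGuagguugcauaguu
hsa-let-7g-5p: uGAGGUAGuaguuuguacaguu
hsa-miR-98-5p: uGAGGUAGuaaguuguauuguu
LIN28 is known to bind the letters GGAG in the terminal loop of the precursor. These letters were found between the 2 arms in 9 of the 12 let-7 hairpins of RefSeq, and not there in MIRLET7A3, MIRLET7B and MIR98. The hairpin of MIRLET7G (chr3:52268278-52268361, minus strand, GRCh38.p14) is shown with the motif in capitals.
MIRLET7G: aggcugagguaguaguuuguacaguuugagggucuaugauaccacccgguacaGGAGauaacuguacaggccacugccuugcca

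A target site was taken as the reverse complement of the seed, CTACCTC, searched on the sense strand of the 3′ untranslated region of 1 transcript per gene (GENCODE 29, GRCh38). The longer form CTACCTCA, called an 8mer, contains it and ends in an A opposite the first base of the microRNA. Of 19124 genes with such a region, 8.55% held at least 1 match and 0.915% held 2 or more. TRIM71 held 6 matches, LIN28B, IGF2BP1 and HMGA2 held 4 each, and LIN28A, HMGA1, IGF2BP2, IGF2BP3 and ARID3B held 1 each. DIS3L2 held none. Long regions hold more matches by length alone: among genes whose region was within 20% of the length of that of LIN28B, 23.1% had a match and 0.245% had as many as LIN28B. The first site of each gene that the results below turn on is shown with its 22 bases before it, the match to the seed in capitals.
LIN28A (chr1:26427341-26427370, plus strand): ttggagtgcacagcctattgaaCTACCTCA
LIN28B (chr6:105078805-105078834, plus strand): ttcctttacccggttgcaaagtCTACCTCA
IGF2BP2 (chr3:185644220-185644249, minus strand): cgagaaaaacacacagaagaagCTACCTCA
IGF2BP3 (chr7:23311795-23311824, minus strand): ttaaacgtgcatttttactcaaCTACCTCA
TRIM71 (chr3:32891961-32891990, plus strand): aaagtacaacattgcttaagtcCTACCTCA
HMGA1 (chr6:34245822-34245851, plus strand): ccatttttcctctgttcacaaaCTACCTCt
These 6 genes all carried the seed match, and HMGA1 lacked the A that makes an 8mer. A match is a stretch of letters and was not tested as a site of repression. Other forms of let-7 site were not searched, so genes counted without a match can hold such sites.

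Library totals lay between 25.3 and 37.1 M reads, and 18286 genes passed the filter on low counts. Levels below are CPM, reads scaled to the TMM-adjusted library total. The erythroid and BCR-ABL markers were present in all 3 lines: all 9 erythroid markers had reads in each, with a summed level of 1239 to 1402 CPM in K562, 1105 to 1153 CPM in K/VP.5 and 949 to 1236 CPM in edit-3. NANOG, PRDM14 and DAZL of the 7 stem and germ cell markers, MS4A1 of the 3 B cell markers and KRT5 and KRT14 of the 4 epithelial markers were at 0 reads in every library. The 4 fibroblast markers moved with the lines, with a summed level of 6.42 to 12.3 CPM in K562, 210 to 290 CPM in K/VP.5 and 1687 to 2967 CPM in edit-3. Most of that sum was COL1A2, while decorin (DCN) stayed under 0.02 CPM on average in each line. The 3 T cell markers summed to 37.3 to 77.2 CPM in K562, 7.79 to 16 CPM in K/VP.5 and 19.4 to 50.4 CPM in edit-3. In bulk RNA, fewer cells with a transcript and less of it per cell cannot be told apart, and the part of these marker differences in the results below was not tested.

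LIN28A (ENSG00000131914, chr1:26410778-26429722, plus strand) was read at a high level in K/VP.5 alone. Its level was 178, 180, 157 and 147 CPM in K/VP.5 replicates 1 to 4, from 6287, 5080, 4324 and 5525 reads. In K562 it was 0.389, 0.622, 0.205 and 0.322 CPM, from 11, 19, 6 and 8 reads. In edit-3 it was 0.323, 0.601, 0.36 and 0.452 CPM, from 10, 18, 10 and 15 reads. Every K/VP.5 library was far above every other library, and the K562 and edit-3 libraries overlapped. The means were 166 ± 16 CPM in K/VP.5, 0.385 ± 0.176 CPM in K562 and 0.434 ± 0.124 CPM in edit-3 (SD, n = 4 each). The ratio of summed, scaled reads was 424 for K/VP.5 over K562 (95% exact interval 316 to 583, for counting error only) and 379 for K/VP.5 over edit-3 (290 to 507). The edit-3 clone, derived from K/VP.5, thus had about the LIN28A level of K562, with a ratio of 1.12 (0.735 to 1.71). LIN28A passed the filter through its K/VP.5 libraries. Of its pseudogenes, LIN28AP1 had 2, 4 and 0 reads in the 3 lines and LIN28AP2 had none.

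LIN28B (ENSG00000187772, chr6:104936616-105083332, plus strand) was high in all 3 lines and did not differ between them past the threshold. Its level was 255, 181, 231 and 170 CPM in K562 replicates 1 to 4. It was 252, 232, 254 and 206 CPM in K/VP.5. In edit-3 it was 236, 182, 184 and 181 CPM. The 3 ranges overlapped, with K/VP.5 highest on average at 236 ± 22.5 CPM, K562 at 209 ± 40.2 CPM and edit-3 at 196 ± 27 CPM (SD, n = 4). The log2 fold change was 0.17 for K/VP.5 against K562 (SE 0.13, 95% interval -0.10 to 0.45, adjusted p = 0.33 by edgeR's quasi-likelihood test with Benjamini-Hochberg adjustment over all genes tested). It was -0.27 for edit-3 against K/VP.5 (SE 0.13, interval -0.55 to 0.01, adjusted p = 0.15), and passed the threshold without edit-3 replicate 1 (-0.38, adjusted p = 0.039). The overlapping LIN28B-AS1, on the opposite strand, had 1, 9 and 1 reads in K562, K/VP.5 and edit-3, against 23742 or more for LIN28B in each line.

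Per kilobase of exon, the LIN28 pair had its highest total in K/VP.5. The length used is that of all annotated exons of a gene merged. It can exceed the length of the mRNA that the cells made, so levels of different genes compare only roughly. LIN28A stood at 41.3 ± 4 CPM per kb in K/VP.5, beside 39.4 ± 3.75 CPM per kb for LIN28B (SD, n = 4). Its share of the LIN28 pair was 48.1% to 53.7% over the 4 K/VP.5 libraries, with a mean of 51.2%. In K562 the mean share was 0.289% and in edit-3 0.341%. The sum of both genes was 80.7 ± 6.73 CPM per kb in K/VP.5, 35 ± 6.68 CPM per kb in K562 and 32.7 ± 4.49 CPM per kb in edit-3. By this measure K/VP.5 held the 2 paralogues at near equal levels, whereas LIN28B made up nearly all of the LIN28 mRNA in the other lines.

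**Figure D1:**
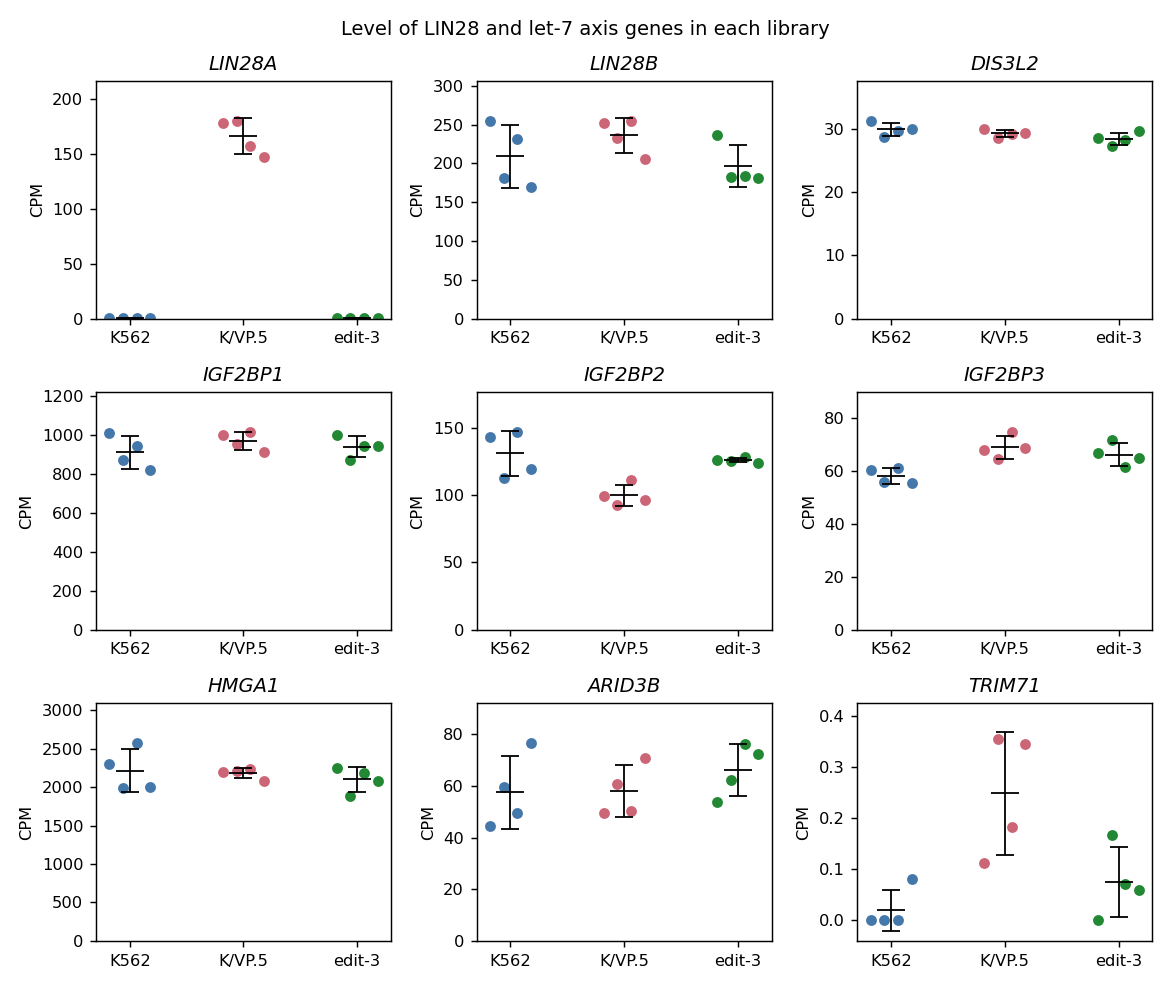
CPM on a linear axis (vertical) in each of the 4 libraries per line (K562, then K/VP.5, then edit-3) for every member but HMGA2, 1 panel per gene; points are libraries, and black lines the mean and SD. LIN28A is high in the 4 K/VP.5 libraries alone (147 to 180 CPM), IGF2BP2 is lowest there (92.9 to 111 CPM), and LIN28B, HMGA1 and IGF2BP1 overlap between the lines.

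DIS3L2 (ENSG00000144535, chr2:231961245-232344350, plus strand), the exonuclease that degrades U-tailed let-7 precursors, was the steadiest member. Its 4 libraries spanned 28.7 to 31.3 CPM for K562, 28.6 to 29.9 CPM for K/VP.5 and 27.3 to 29.7 CPM for edit-3. The 3 ranges overlapped, with a log2 fold change of -0.03 for K/VP.5 against K562 (95% interval -0.17 to 0.11, adjusted p = 0.76, edgeR), so the interval holds changes of no more than 0.89-fold to 1.08-fold.

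Of the 7 let-7 targets among the members, 5 passed the filter. In K/VP.5 against K562, IGF2BP3 was higher, IGF2BP2 was lower, and IGF2BP1, HMGA1 and ARID3B did not pass an adjusted p of 0.05. TRIM71 and HMGA2 had too few reads for the filter, and TRIM71 was higher in K/VP.5 when genes of all levels were tested (log2 fold change 3.53, SE 0.85, adjusted p = 0.0018, edgeR), from trace counts given below. With LIN28B and DIS3L2, which are a regulator and a decay enzyme, 7 members besides LIN28A passed the filter, and neither of these was called. Of all 18286 genes tested in that comparison, 36.6% were called, 18.3% higher and 18.3% lower, so 1 higher and 1 lower of the 7 is a share near the background. In edit-3 against K/VP.5, 1 of the 7 was higher and none lower, where 23.6% of all genes were called (12.9% higher and 10.6% lower). No member was called lower there by DESeq2 either, nor at an unadjusted p under 0.05. The log2 fold changes of the 7 lay between -0.39 and 0.25 in the former comparison and between -0.27 and 0.33 in the latter. Their median absolute log2 fold change was 0.09 and 0.06, beside 0.30 and 0.23 over all genes tested. The members were not matched to those genes for level, and fold changes spread more at low counts. Both comparisons use the same K/VP.5 libraries, so their values are not independent.

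**Figure D2:**
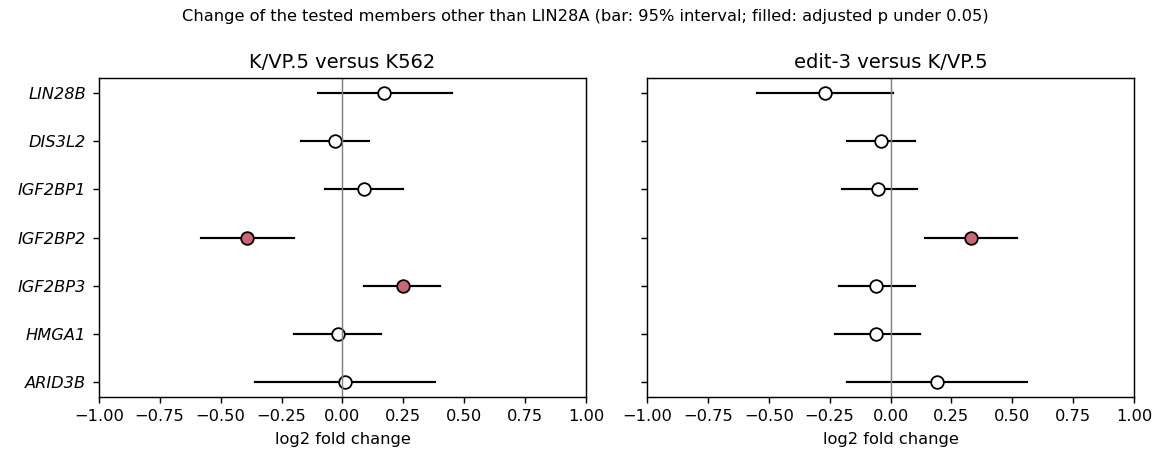
Log2 fold change (horizontal) for the 7 tested members other than LIN28A, in K/VP.5 versus K562 (left) and edit-3 versus K/VP.5 (right); lines are 95% intervals and filled points passed an adjusted p of 0.05. IGF2BP2 is below 0 on the left (-0.39) and above 0 on the right (0.33), IGF2BP3 is above 0 on the left (0.25), and the intervals of LIN28B, DIS3L2, HMGA1, IGF2BP1 and ARID3B include 0 in both panels.

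The IGF2BP proteins bind mRNAs such as those of IGF2 and MYC and protect or localise them, and their own mRNAs are let-7 targets. IGF2BP2 (ENSG00000073792, chr3:185643739-185825056, minus strand) was the member lower in K/VP.5. Its level was 99.5, 92.9, 111 and 96.4 CPM in K/VP.5 replicates 1 to 4. It was 143, 113, 147 and 119 CPM in K562. In edit-3 it was 126, 125, 128 and 124 CPM. The highest K/VP.5 library lay below the lowest library of either other line, a separation that 37.4% of all genes showed between K/VP.5 and K562, 26% between edit-3 and K/VP.5, and 10.3% between K/VP.5 and both others together. The log2 fold change was -0.39 against K562 (SE 0.088, interval -0.58 to -0.20, adjusted p = 0.0029, edgeR). Edit-3 was higher than K/VP.5 by 0.33 (SE 0.088, interval 0.14 to 0.52, adjusted p = 0.013). Edit-3 and K562 differed by -0.05 (interval -0.24 to 0.14, adjusted p = 0.67). IGF2BP2 thus had its low level in the line where LIN28A was high, which is the opposite side from LIN28A.

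IGF2BP3 (ENSG00000136231, chr7:23310209-23470467, minus strand) was the member higher in K/VP.5 than in K562, by a small amount. Its level was 67.9, 64.4, 74.8 and 68.8 CPM in K/VP.5 replicates 1 to 4. It was 60.4, 55.7, 61.3 and 55.4 CPM in K562. In edit-3 it was 66.8, 71.6, 61.6 and 65 CPM. All K/VP.5 libraries lay above those of K562 and overlapped with those of edit-3. The log2 fold change was 0.25 against K562 (SE 0.073, interval 0.09 to 0.40, adjusted p = 0.016, edgeR), and the call ended without K/VP.5 replicate 3 (adjusted p = 0.051). Edit-3 against K/VP.5 gave -0.06 (interval -0.21 to 0.10, adjusted p = 0.62), so IGF2BP3 did not follow LIN28A down in edit-3. Edit-3 against K562 gave 0.19 with adjusted p = 0.057, with ranges that did not overlap (34% of all genes), and passed without K562 replicate 3 or edit-3 replicate 3. MALSU1 overlaps IGF2BP3 on the opposite strand, with 2017, 2263 and 2092 reads in K562, K/VP.5 and edit-3. Its log2 fold change was -0.02 in K/VP.5 against K562 (adjusted p = 0.93).

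IGF2BP1 (ENSG00000159217, chr17:48997412-49055650, plus strand), with 4 seed matches, was the strongest IGF2BP gene in every line. Its libraries spanned 821 to 1012 CPM for K562, 912 to 1018 CPM for K/VP.5 and 874 to 1003 CPM for edit-3, and the 3 ranges overlapped. Against K562, K/VP.5 differed by 0.09 on the log2 scale (SE 0.073, interval -0.07 to 0.25, adjusted p = 0.37), and edit-3 against K/VP.5 by -0.05 (adjusted p = 0.71), both by edgeR. Shares between these genes depend on the merged exon length, which can exceed that of the mRNA made. Per kilobase of exon, IGF2BP1 took 74.5% of the summed IGF2BP level in K562, 78.5% in K/VP.5 and 75% in edit-3. IGF2BP2 took 20.5%, 15.5% and 19.3%, and IGF2BP3 took 5.1%, 5.97% and 5.67%. The sum itself was 135 ± 12.6, 136 ± 6.87 and 138 ± 5.71 CPM per kb in K562, K/VP.5 and edit-3 (SD, n = 4), so the lower share of IGF2BP2 in K/VP.5 came with a total of about the same size.

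**Figure D3:**
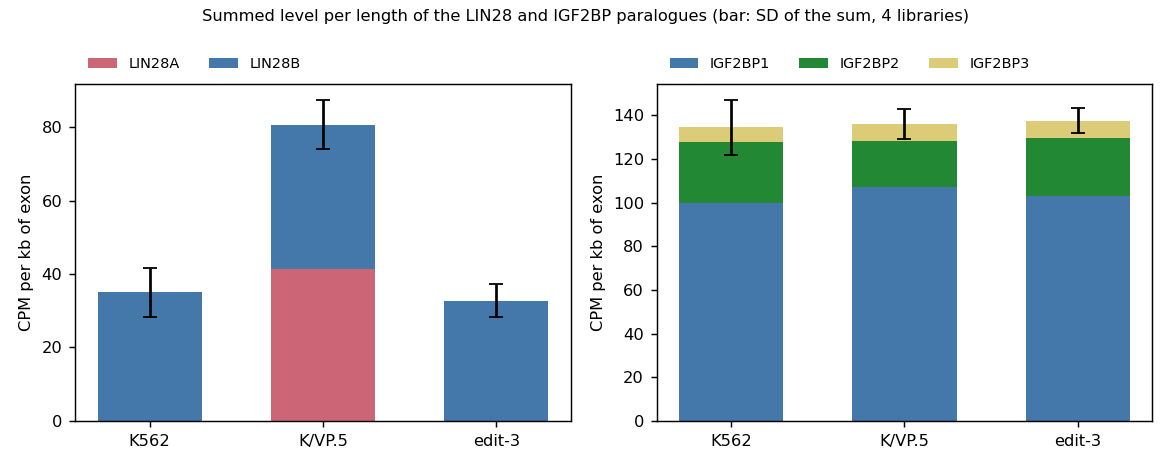
Summed level per kilobase of exon (CPM per kb, vertical, from 0) of the LIN28 pair (left) and the IGF2BP genes (right) by line; coloured segments are the mean of each gene over 4 libraries, and the black bar is the SD of the sum. The LIN28 sum is 80.7 CPM per kb in K/VP.5 against 35 in K562 and 32.7 in edit-3, while the IGF2BP sum is 135 to 138 CPM per kb in the 3 lines.

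HMGA1 and HMGA2 are chromatin architectural proteins of the AT-hook family, and HMGA2 is the best studied let-7 target. HMGA1 (ENSG00000137309, chr6:34236873-34246231, plus strand) was the most abundant member, at 2214 ± 281, 2182 ± 66.6 and 2100 ± 160 CPM in K562, K/VP.5 and edit-3 (SD, n = 4). Its library values ran from 1982 to 2574 CPM in K562, from 2084 to 2233 CPM in K/VP.5 and from 1885 to 2253 CPM in edit-3, all overlapping, with a log2 fold change of -0.02 for K/VP.5 against K562 (SE 0.084, interval -0.20 to 0.16, adjusted p = 0.88, edgeR). HMGA1 has 8 annotated pseudogenes in the table, which together held reads equal to 0.243% of its own. HMGA2 (ENSG00000149948, chr12:65824131-65966295, plus strand), with 4 seed matches, had 0 reads in all K562 and K/VP.5 libraries and 1 read in edit-3 replicate 4. A count of 0 over the 4 libraries allows up to 0.0266 CPM for K562 and 0.0233 CPM for K/VP.5 (3 counts, counting error only). HMGA2 RNA was thus not detectable in K/VP.5 at this depth.

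ARID3B (ENSG00000179361, chr15:74541177-74598131, plus strand) encodes a DNA-binding protein of the ARID family. Its level was 44.5, 59.4, 49.3 and 76.6 CPM in K562 replicates 1 to 4. It was 49.6, 60.8, 50.4 and 70.8 CPM in K/VP.5. The edit-3 libraries had 53.7, 62.2, 76 and 72.2 CPM. The ranges overlapped, and the log2 fold change was 0.01 for K/VP.5 against K562 (SE 0.17, interval -0.36 to 0.38, adjusted p = 0.97, edgeR), an interval wide enough to hold changes of 0.78-fold to 1.30-fold.

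TRIM71 (ENSG00000206557, chr3:32818018-32897826, plus strand), also called LIN41, is an RNA-binding ubiquitin ligase of early development and held the most seed matches of all members. It was read at trace level and did not pass the filter. K/VP.5 replicates 1 to 4 had 4, 10, 5 and 13 reads. K562 had 0, 0, 0 and 2 reads, and edit-3 had 0, 5, 2 and 2. The K/VP.5 libraries lay above all K562 libraries and overlapped with those of edit-3. With 32 reads against 2, the ratio of K/VP.5 to K562 was 14.1, with an exact counting interval of 3.59 to 121. Against the 9 reads of edit-3 it was 3.37 (1.57 to 8.03). When genes of all levels were tested with edgeR, the adjusted p was 0.0018 for K/VP.5 against K562 and 0.089 for edit-3 against K/VP.5. The mean level in K/VP.5 was 0.249 ± 0.12 CPM (SD, n = 4), far under the 166 CPM of LIN28A in the same libraries.

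Against the mean of K562 and edit-3, which asks for the pattern of LIN28A itself, 1 of the 7 tested members was lower in K/VP.5 and none higher, where 28.6% of all genes were called (14.6% higher and 14% lower). TRIM71, not among the 7, was higher at 2.62 (SE 0.62, adjusted p = 0.0018) when genes of all levels were tested, from 32 reads in K/VP.5. The lower one was IGF2BP2, at -0.36 (SE 0.078, interval -0.53 to -0.19, adjusted p = 0.0026, edgeR). LIN28B was at 0.22 (adjusted p = 0.16) and IGF2BP3 at 0.15 (adjusted p = 0.089), which passed without edit-3 replicate 2 (0.18, adjusted p = 0.036). No member was called higher by DESeq2, and 1 was at an unadjusted p under 0.05. In edit-3 against K562, none of the 7 was called by edgeR, where 39.2% of all genes were (20.6% higher and 18.6% lower). At an unadjusted p under 0.05 that comparison had 1 member higher and none lower, and DESeq2 also called 1, IGF2BP3.

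The machinery that makes and destroys let-7 was described with a list of 19 genes, all of which passed the filter. None was higher in K/VP.5 against K562, 2 were lower and 17 did not pass, so 10.5% of the list was called where 36.6% of all genes were, with a median log2 fold change of 0.03 beside 0.00 over all genes. At an unadjusted p under 0.05, 1 was higher and 4 lower, and DESeq2 called 1 higher and 2 lower. With the replicate number as a block, 5 were called, 2 of them higher: RAN, the export GTPase (0.17, adjusted p = 0.039), and DICER1 (0.21, adjusted p = 0.046), with AGO1 (-0.20, adjusted p = 0.013) added to the lower ones. The lower genes without the block were ZCCHC6 (TUT7), a uridylyltransferase that tails let-7 precursors, and AGO4, an Argonaute protein. ZCCHC6 stood at 59.8 ± 6.17 CPM in K562, 38.7 ± 4.52 CPM in K/VP.5 and 37.5 ± 0.45 CPM in edit-3 (SD, n = 4), a log2 fold change of -0.63 for K/VP.5 against K562 (SE 0.095, adjusted p = 9.5e-05, edgeR). It was thus at a like low level in K/VP.5, where LIN28A was high, and in edit-3, where it was not. AGO4 stood at 15.2, 10.8 and 19 CPM in K562, K/VP.5 and edit-3, with -0.50 for K/VP.5 against K562 (adjusted p = 0.035), a call lost when any 1 of K562 replicates 2 or 4 or K/VP.5 replicates 1, 2 or 3 was left out (adjusted p 0.062 to 0.12). In edit-3 against K/VP.5, 2 were higher, 1 was lower and 16 did not pass (15.8% called, where 23.6% of all genes were), with a median of -0.07. DICER1, which cuts the let-7 precursor and is itself a let-7 target, was higher in edit-3 (131 ± 7.81 CPM) than in K/VP.5 (90.3 ± 5.56 CPM), a log2 fold change of 0.54 (adjusted p = 0.00016). AGO4 was higher by 0.82 (adjusted p = 0.0027). TUT1, a terminal uridylyltransferase of U6 RNA, was lower by -0.27 (adjusted p = 0.022), a call lost without K/VP.5 replicate 2 (0.059) or 3 (0.075).

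The let-7 genes themselves were seen only through reads on their precursor and host genes. Of 21 precursor and host genes listed, 20 matched the table, 6 had 0 reads in all libraries and 5 passed the filter: MIRLET7BHG, HUWE1, WDR82, SPACA6 and LINC01465. The 12 precursor genes did not reach the filter in any case, and the highest, MIRLET7D, had 16, 37 and 38 reads in K562, K/VP.5 and edit-3. None of the 5 was called in K/VP.5 against K562, where 36.6% of all genes were, by edgeR or DESeq2, nor at an unadjusted p under 0.05. MIRLET7BHG, the host of let-7a-3 and let-7b, was at 3.58, 2.76 and 3.56 CPM in K562, K/VP.5 and edit-3, with a log2 fold change of -0.36 for K/VP.5 against K562 (adjusted p = 0.37). In edit-3 against K/VP.5, 1 was higher and 2 were lower, 60% of the 5 where 23.6% of all genes were called. HUWE1, the host of let-7f-2 and miR-98, was higher by 0.21 (adjusted p = 0.037), SPACA6 lower by -0.64 (adjusted p = 0.029) and LINC01465 lower by -0.57 (adjusted p = 0.047). Each of these calls was lost when any 1 of 5 of the 8 libraries compared was left out.

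A further 29 genes known as let-7 targets were listed, of which 26 passed the filter; MYCN, FAS and THBS1 had too few reads. In K/VP.5 against K562, 7 were higher, 5 were lower and 14 did not pass, with a median log2 fold change of -0.04. That is 46.2% of the list called, where 36.6% of all genes were. In edit-3 against K/VP.5, 8 were higher, 5 were lower and 13 did not pass, with a median of 0.09. There 50% of the list was called, where 23.6% of all genes were (12.9% higher and 10.6% lower). All genes include noncoding ones. Tested genes with a 3′ untranslated region but no seed match had 20.7% higher and 21.4% lower in K/VP.5 against K562. In edit-3 against K/VP.5 they had 14.2% higher and 12.6% lower. CDK6, a cell cycle kinase, had the LIN28A pattern: it stood at 198 ± 27.7 CPM in K562, 459 ± 36.7 CPM in K/VP.5 and 194 ± 25.8 CPM in edit-3 (SD, n = 4). Its log2 fold change was 1.21 for K/VP.5 against K562 (adjusted p = 7.3e-07, edgeR) and -1.24 for edit-3 against K/VP.5 (adjusted p = 1.2e-06). MYC and IRS2 had calls on the same sides, and are named after their values were seen. MYC, the growth transcription factor, stood at 524, 642 and 504 CPM in K562, K/VP.5 and edit-3 (0.29, adjusted p = 0.019, then -0.35, adjusted p = 0.011). IRS2, an adaptor of the insulin receptor, stood at 25.6, 33.9 and 22.4 CPM (0.41, adjusted p = 0.048, then -0.60, adjusted p = 0.0099). Against K562, the MYC call was lost without K/VP.5 replicate 1 (0.05) or 3 (0.064). That of IRS2 was lost without any 1 of K562 replicates 1, 2 or 4 or K/VP.5 replicates 1 or 3 (0.057 to 0.17).

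Other list genes went against LIN28A or stayed high once LIN28A was gone. CCND2, a D-type cyclin, stood at 117 ± 10.5 CPM in K562, 425 ± 19.8 CPM in K/VP.5 and 443 ± 45.6 CPM in edit-3, a log2 fold change of 1.87 for K/VP.5 against K562 (adjusted p = 5.1e-10, edgeR). INSR, the insulin receptor, stood at 4.25, 23.6 and 59.3 CPM, with 2.48 for K/VP.5 against K562 (adjusted p = 2.9e-05). CCND1, another D-type cyclin, went the other way, at 7.98 ± 4.61, 1.32 ± 0.312 and 44.4 ± 9.93 CPM in K562, K/VP.5 and edit-3. It was lower by -2.57 in K/VP.5 against K562 (adjusted p = 0.00032) and higher by 5.05 in edit-3 against K/VP.5 (adjusted p = 3.3e-06). BCL2L1, which encodes the survival protein BCL-XL, stood at 106, 62.1 and 125 CPM, with -0.77 for K/VP.5 against K562 (adjusted p = 0.00014) and 1.01 for edit-3 against K/VP.5 (adjusted p = 2.6e-05). IGF1R, the receptor of insulin-like growth factor, was at 30.1 and 33.9 CPM in K562 and K/VP.5 and higher in edit-3 at 60.8 CPM (0.84 against K/VP.5, adjusted p = 3.1e-05). NAP1L1, a histone chaperone, fell from line to line, at 490, 387 and 284 CPM, with -0.79 for edit-3 against K562 (adjusted p = 1.1e-07).

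**Figure D4:**
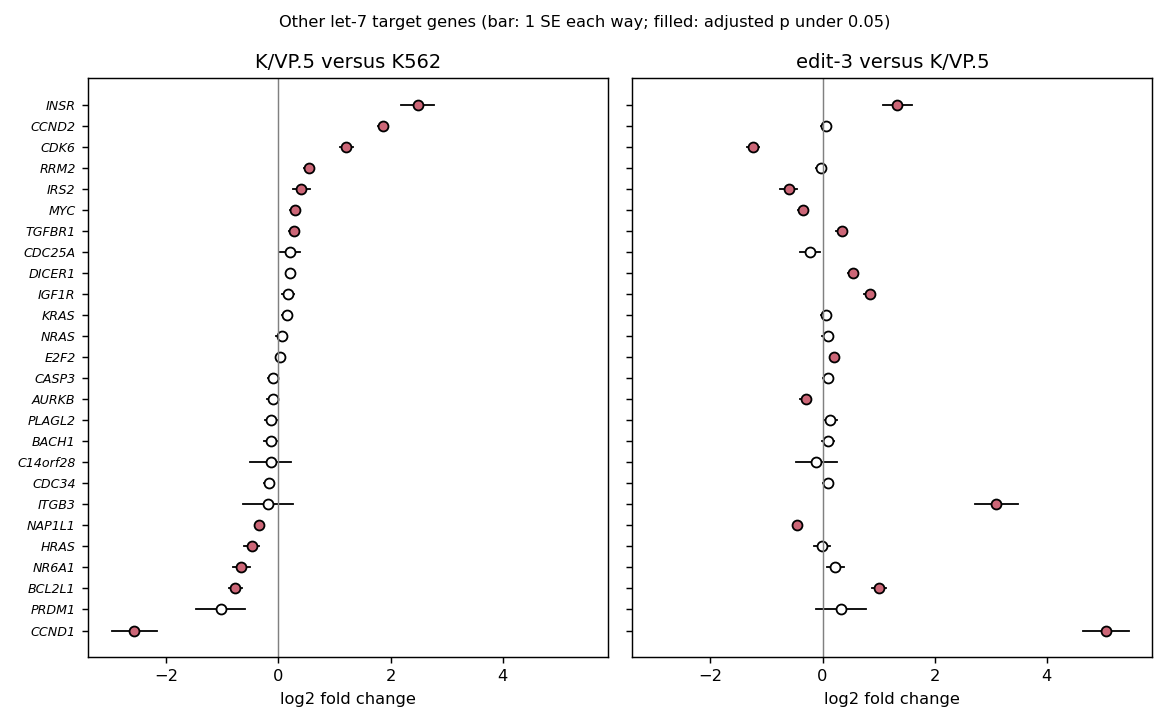
Log2 fold change (horizontal) of the 26 tested genes of the list of further let-7 targets, 1 row per gene, in K/VP.5 versus K562 (left) and edit-3 versus K/VP.5 (right); lines are 1 SE each way, filled points passed an adjusted p of 0.05, and both panels use the K/VP.5 libraries. CDK6 lies at 1.21 on the left and -1.24 on the right, CCND1 at -2.57 and 5.05, and 12 and 13 genes are filled.

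All genes with a let-7 seed match were also set beside those without one, in groups formed after the data had been seen. The members were not taken out, so LIN28A, chosen for its level, counts among those with 1 match and with an 8mer. In K/VP.5 against K562 the median log2 fold change was 0.001 for 11571 tested genes with no match, 0.016 for 1095 with 1 match, 0.035 for 135 with 2 or more and 0.034 for 484 with an 8mer. In edit-3 against K/VP.5 the medians were -0.017, 0.003, 0.004 and -0.003. Of the genes with 2 or more matches, 22.2% were called higher and 22.2% lower in K/VP.5 against K562, beside 20.7% and 21.4% of those with no match. Genes with an 8mer had 22.9% higher and 19.8% lower. In K/VP.5 against the mean of K562 and edit-3, 19.3% of genes with 2 or more matches were higher and 14.8% lower. Genes with an 8mer had 19.4% and 14.9% there, beside 16.9% and 16.1% of those with no match. In edit-3 against K562, where LIN28A was about equal, 25.9% of genes with 2 or more matches were higher and 19.3% lower. Those with an 8mer had 24.8% and 21.7%, and those with no match 22.3% and 22.4%. In edit-3 against K/VP.5 the shares were 17% and 15.6%, 17.4% and 14.5%, and 14.2% and 12.6%, in the same order. Genes with 2 or more matches thus had equal shares in K/VP.5 against K562 and more higher than lower calls in the other comparisons. Genes with no match also had more higher than lower calls in edit-3 against K/VP.5 and in K/VP.5 against the mean. Those with 1 match had 20.8% higher and 21.1% lower in K/VP.5 against K562. In edit-3 against K/VP.5 they had 16.8% and 13.2%. The difference between these shares was not tested. The groups also differ in the length of the 3′ untranslated region, with a median of 914 bases without a match and 4695 bases with 2 or more.

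**Figure D5:**
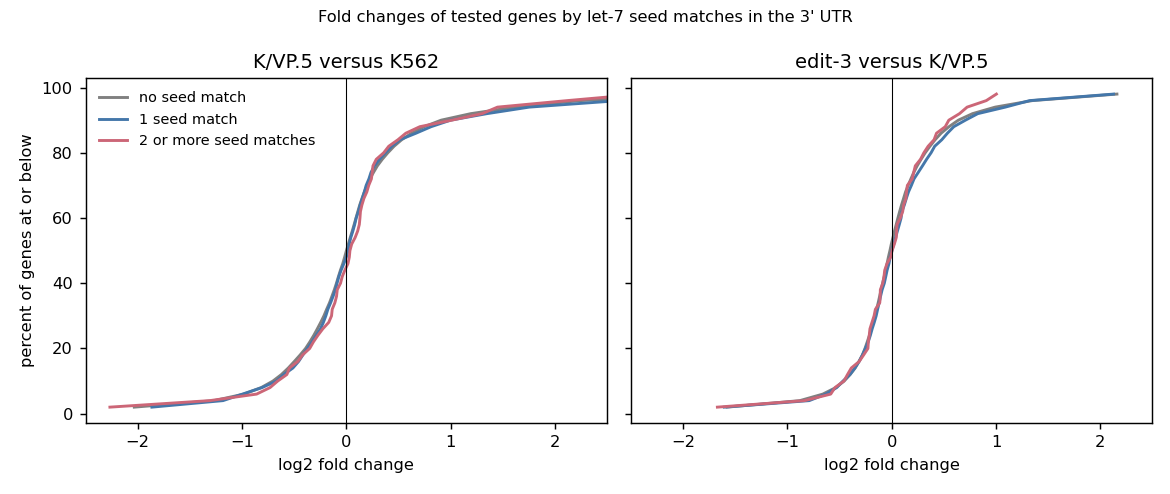
Cumulative percent of tested genes (vertical, drawn for percentiles 2 to 98) against log2 fold change (horizontal, a few of the highest values lie beyond the axis on the left panel) by number of let-7 seed matches in the 3′ untranslated region. The curves cross 50% close to 0, with medians of 0.001, 0.016 and 0.035 for no, 1 and 2 or more matches in K/VP.5 versus K562.

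Genes that accompany LIN28A in embryonic stem cells mostly had few or no reads. Of 12 such genes, 4 passed the filter, and NANOG, PRDM14 and ZFP42 had 0 reads in all libraries. Of these, 2 were higher in K/VP.5 against K562, none lower and 2 did not pass by edgeR; at an unadjusted p under 0.05 there were 2 higher and 1 lower, and DESeq2 called 2 higher. The called share was 50%, where 36.6% of all genes were called. It counts UTF1, which had no reads in K562 and passed the filter only through K/VP.5 and edit-3. The side of UTF1 against K562 was thus set by the filter. UTF1, a chromatin-bound stem cell factor, had 0, 90 and 82 reads in K562, K/VP.5 and edit-3, so against a floor of 3 reads over the 4 K562 libraries its level was at least 26.4-fold higher for K/VP.5 and at least 25.3-fold higher for edit-3. KLF4, a transcription factor, stood at 1.12, 1.86 and 2.65 CPM, with 0.72 for K/VP.5 against K562 (adjusted p = 0.014). POU5F1 (OCT4) stood at 0.375, 0.211 and 0.482 CPM and was higher in edit-3 than in K/VP.5 by 1.19 (adjusted p = 0.012). UTF1 and KLF4 were thus as high or higher in edit-3, where LIN28A was low.

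Globin genes and their regulators were listed because LIN28B and IGF2BP1 are tied to fetal hemoglobin. All 8 passed the filter. The list had 3 genes higher and 2 lower in K/VP.5 against K562, and in edit-3 against K/VP.5 none was called by edgeR or DESeq2, or at an unadjusted p under 0.05. The called share of the list was 62.5% and 0%, where it was 36.6% and 23.6% of all genes. Reads of the fetal globin gene HBG1 cannot be separated cleanly from those of its near-identical copy HBG2. HBG1 stood at 94.2 ± 2.75, 163 ± 47.7 and 168 ± 33.5 CPM in K562, K/VP.5 and edit-3. Its log2 fold change for K/VP.5 against K562 was 0.79 (adjusted p = 0.0037, edgeR). HBG2 stood at 72.9 ± 6.81, 66.7 ± 6.74 and 77 ± 16.4 CPM, with -0.13 (adjusted p = 0.49, edgeR). The higher level was thus read on HBG1 and not on HBG2. The embryonic globin gene HBE1 was lower by -1.45 (adjusted p = 0.0011), at 0.708 and 0.252 CPM. BCL11A, a repressor of fetal globin, was higher by 1.78 (adjusted p = 0.0053), and the adult HBB by 2.13 (adjusted p = 0.0067), but both stayed under 1 CPM.

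The LIN28A locus was examined through the 5 tested genes nearest on each side. In K/VP.5 against K562, 1 of the 10 was higher (CRYBG2, at 1.15, adjusted p = 3.3e-05) and 1 lower (SH3BGRL3, at -1.06, adjusted p = 0.0036, edgeR), with a median of 0.01, where 36.6% of all genes were called. DHDDS, which starts 2.56 kb beyond the end of LIN28A, was at 47.3, 53.5 and 52.7 CPM in K562, K/VP.5 and edit-3 (0.17, adjusted p = 0.15).

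The genes whose log2 CPM over the 12 libraries was most like that of LIN28A were LINC01606, TFAP2B, PKNOX2, SLC7A2 and LINC00383, with Pearson's r of 0.997, 0.996, 0.996, 0.995 and 0.993. These points share the same libraries and fall into 2 clusters, K/VP.5 and the rest, so r measures little more than that split. TFAP2B was at 0.00819, 20.9 and 0.0503 CPM in K562, K/VP.5 and edit-3, and SLC7A2 at 0.0252, 18.9 and 0.0994 CPM. Among the members, r with LIN28A was 0.56 for IGF2BP3, 0.48 for LIN28B, 0.33 for IGF2BP1, 0.03 for DIS3L2 and HMGA1, -0.14 for ARID3B and -0.86 for IGF2BP2. Of 18285 genes, 2259 were more like LIN28A than IGF2BP3 was, and 17903 were more like it than IGF2BP2 was.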

How the data were processed

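For 12 libraries and 58395 genes, the authors deposited raw counts of reads, whole numbers that were not normalized. HISAT2 2.1.0, Subread 1.5.1 with featureCounts, and the GRCh38 build stand in the submitters' processing notes. For strand setting, annotation release and reads with several matches, the sources used here give nothing, so reads of overlapping genes on opposite strands cannot be separated.

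Libraries were assigned to lines by their source name. The description label calls every library parental, conflicts with the source names and was not used. The members and gene lists were chosen with earlier results of these data known. Of 89 entries in 5 lists, 88 were found in the table.

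Counts were filtered with filterByExpr (18286 genes kept, 99.89% of reads), scaled by TMM and tested with the robust quasi-likelihood test of edgeR 4.0.16 (R 4.3.3, limma 3.58.1), with all 12 libraries in 1 model and 1 coefficient per line. Benjamini-Hochberg adjustment ran over all genes tested, at a threshold of 0.05. The SE is the size of the log2 fold change over the square root of F. Alternatives were DESeq2 1.42.0, its size factors, other filters, a replicate block, fits of 2 lines alone and leaving out each library. The test was checked on simulated data. Coordinates, exon lengths and 3′ untranslated regions are from GENCODE 29, which held 58275 of the genes. Named genes are the members, up to 4 list genes with the smallest adjusted p per comparison, the 5 genes most like LIN28A, its 5 neighbours on each side, and overlapping genes.

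Libraries of 1 line differed pairwise by a chi-square per degree of freedom of 6.68 to 67.4 (genes with at least 20 reads), so none was a copy of another. The lines share replicate numbers. Correlations of deviations from the means of the lines were 0.31, 0.15, 0.14 and 0.51 for K562 and K/VP.5 libraries of equal number. These libraries were taken as paired, on the data alone. The correlations do not settle that pairing, since K562 replicate 3 stood at 0.29 with K/VP.5 replicate 1. With edit-3, correlations at equal number ran from -0.11 to 0.47, and no pairing was taken. The main fit left the pairing of K562 and K/VP.5 out. Adjusted p-values for K/VP.5 against K562 are therefore unpaired, except where the block is named. The block raised the genes called between K562 and K/VP.5 from 6688 to 7681.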

Additional observations from a re-analysis of the deposited data

Results flagged for a closer look

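In 28 sets of 4 libraries (a member in a line), 3 had a highest or lowest library standing apart. The gap to the other 3 libraries was more than Dixon's 95% critical share of the whole range. For normally spread values chance alone gives about 1 in 20. That rate does not hold near 0 reads, where a set with all reads in 1 library has a ratio of 1. For LIN28B in edit-3 the ratio was 0.942, with replicate 1 at 236 CPM and the others between 181 and 184 CPM. Without that library the log2 fold change of LIN28B in edit-3 against K/VP.5 was -0.38 (adjusted p = 0.039, edgeR), against -0.27 (adjusted p = 0.15) with it. For TRIM71 in K562 the ratio was 1, because replicate 4 held both reads. For HMGA2 in edit-3 it was also 1, from the single read in replicate 4.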

How the results depend on the processing

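No fold change past the threshold changed its direction under the alternatives run for the members and list genes. The number of members called in K/VP.5 against K562 was 2; it became 3 with no filter (adding TRIM71) and was 1 to 2 with single libraries left out, being 1 without K/VP.5 replicate 3. In edit-3 against K/VP.5 it was 1; it became 2 with the replicate block and was 1 to 2 with single libraries left out, being 2 without edit-3 replicate 1. In edit-3 against K562 it was 0; it became 1 (IGF2BP3) with the stricter filter (at least 1 CPM in at least 4 libraries) and 1 with DESeq2, and was 0 to 1 with single libraries left out. In K/VP.5 against the mean of the others it was 1; it became 2 with no filter (adding TRIM71) and 2 with the replicate block, and was 1 to 2 with single libraries left out. With the replicate block, LIN28B passed the threshold in edit-3 against K/VP.5 (-0.28, adjusted p = 0.016) and against the mean (0.23, adjusted p = 0.016), in a pairing taken for K562 and K/VP.5 alone; no member call against K562 changed with the block. The number of all genes called also moved with the setting, as given above for the block. It was not set beside these member counts, so they cannot be read against a background. The cause of these changes was not tested. The list of further let-7 targets had 10 to 14 genes called in K/VP.5 against K562. Its alternatives, and those of the other lists, were added after seeing the data. Depth limits TRIM71 and HMGA2, with 32 reads and 0 reads in K/VP.5. Of 4520 values recomputed, 4149 values of single genes and small lists and 167 counts of whole comparisons were the same in direction and call or count; 100 lost a call, 56 gained one, 38 counts of small lists moved by over 1.5 times, and the 10 member counts above moved. Of the latter, the list of let-7 processing in K/VP.5 against K562 went from 2 called genes to 4 with the stricter filter and 5 with the block, and was 1 to 3 with single libraries left out.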
